A study of Mus musculus with 16 samples.

Results

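The mitochondrial ribosomal protein genes are the nuclear genes that encode the proteins of the ribosome inside mitochondria. They were taken as all protein-coding genes in the RNA tables whose symbol starts with Mrpl (large subunit) or Mrps (small subunit) followed by a number, leaving out 5 names that end in -ps. This gave 78 genes of 48709 in the tables, 49 of the large and 29 of the small subunit. The series profiled sorted mouse cochlear progenitor cells that form the organ of Corti, where sound is sensed. The later cells were p27-GFP+ progenitors at embryonic stage E13.5, with 2 RNA-seq, 3 ATAC-seq and 2 H3K27ac CUT&RUN libraries. The earlier cells were Sox2-GFP+ progenitors at embryonic stage E12.0, with 2 RNA-seq, 3 ATAC-seq, 2 H3K27ac CUT&RUN and 2 pan-Tead CUT&RUN libraries. The stages therefore also differ in the reporter used for the sort, and age and reporter cannot be told apart. The labels name no genetic change or treatment in either group beyond the reporters, and how these were built is not stated. Nor do they state that each replicate is its own litter, so the p-values cover only the spread between these libraries.

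Mitochondria keep a small genome of their own, which encodes core subunits of the respiratory chain, transfer RNAs and the RNAs of the mitochondrial ribosome, mt-Rnr1 in the small and mt-Rnr2 in the large subunit. All proteins of this ribosome are made in the cytosol and imported. Many have a relative in bacterial ribosomes, and others exist only in mitochondrial ones. The inner ear is known to depend on this machinery: variants of the human counterpart of mt-Rnr1 cause hearing loss, and human MRPS2, MRPS7, MRPL49 and MRPL50 have been linked to syndromes with hearing loss.

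The RNA libraries held 17057725 and 19570863 estimated reads at E13.5, against 9412287 and 9810541 at E12.0. All 78 genes passed the filter on low counts, which kept 15982 genes. Of the 12 prosensory markers, all were detected, and their summed level was 4860 and 4990 counts per 1000000 (CPM) at E13.5, against 2330 and 2180 CPM at E12.0. Cdkn1b, the gene of p27, was at 229 and 182 CPM at E13.5, against 7.70 and 8.59 CPM at E12.0. Markers of other cells moved with stage too. Summed over each list, the 7 mesenchymal markers were at 363 and 465 CPM at E13.5, against 1270 and 1140 CPM at E12.0, nearly all from Lum, with Twist1 at 0 in 1 library of each stage and Pou3f4 and Tbx18 at 0 at E12.0. The 5 glial and neural crest markers were at 644 and 680 CPM at E13.5, against 1790 and 2100 CPM at E12.0, mostly Erbb3, while Sox10 of the same list was higher at E13.5 (181 and 202 CPM, against 49.5 and 51.8 CPM at E12.0). The 7 neuronal markers were at 25.3 and 23.7 CPM at E13.5, against 45.3 and 57.1 CPM at E12.0. Neurog1 had 0 reads at E13.5, against only 3 and 13 at E12.0. Of the 6 neuronal markers tested, 5 had a negative log2 fold change, E13.5 over E12.0. Tubb3 was the exception, at 1.02 ± 0.53 (edgeR adjusted p = 0.137). The 6 melanocyte markers were at 4.67 and 27.9 CPM at E13.5, against 4.26 and 3.30 CPM at E12.0, with Dct, Tyr, Tyrp1 and Mlana at 0 at E12.0. Mitf went the other way, at 1.91 and 0.678 CPM at E13.5, against 3.99 and 3.18 CPM at E12.0, nearly all of the E12.0 sum. The endothelial, erythroid and immune lists stayed at or under 12 CPM in every library. The part of these cells in the results below was not tested.

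At E13.5, 22 of the 78 mitochondrial ribosomal protein genes were lower and 8 were higher than at E12.0 at an adjusted p under 0.05 (edgeR quasi-likelihood test, 2 libraries per stage, Benjamini-Hochberg adjustment over all genes tested), and 48 passed neither way. Of all 15982 genes, 23.5% were called lower and 22.4% higher, so the share of these genes called lower, 28.2%, was near that of all genes, and the share called higher, 10.3%, was less than that. Their median log2 fold change, E13.5 over E12.0, was -0.31, against 0.05 for all genes tested. Both E13.5 libraries lay below both E12.0 libraries for 37 of the 78 genes, and above for 22; among all genes tested this held for 36.1% and 39.3%. In bulk RNA, fewer cells that express a gene and less RNA per cell cannot be told apart.

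The scale matters for these directions. The values above are scaled by TMM, a factor that sets most genes level between libraries. On log2(TPM + 1), where TPM is transcripts per 1000000, the medians were higher at E13.5: the median of all genes became 0.76 and that of these genes 0.56. With limma on that scale 27 of these genes were called higher and 5 lower, among 6604 higher and 1996 lower genes in all. Relative to the median of all genes they stayed lower on both scales, by 0.36 with TMM and, from unrounded medians, by 0.19 on log2(TPM + 1). With TMM this difference was -0.21 without E12.0 replicate 1 and without E13.5 replicate 1, -0.41 without E13.5 replicate 2, and -0.54 without E12.0 replicate 2. The RNA of mt-Rnr2 alone held 0.295% and 0.180% of the counts at E13.5, against 17.0% and 13.2% at E12.0.

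**Figure D1:**
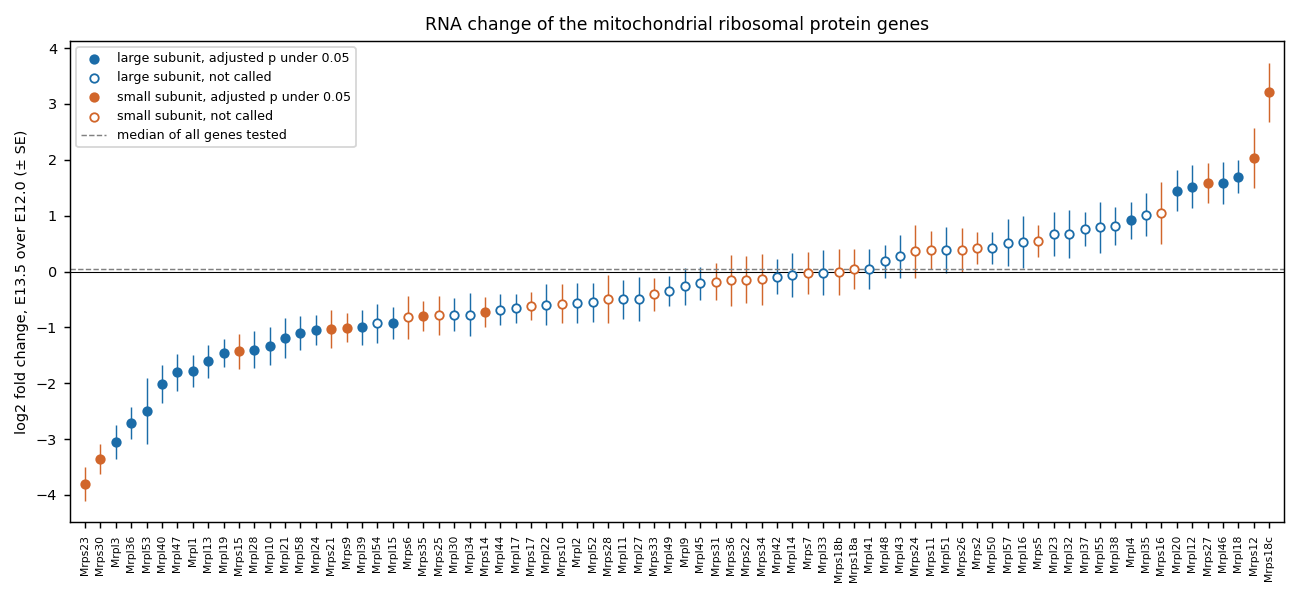
Log2 fold change, E13.5 over E12.0, of the 78 mitochondrial ribosomal protein genes, ranked by it, with bars for the standard error of the edgeR fit. Filled points passed an adjusted p under 0.05, and the dashed line is the median of all genes tested (0.05). The values run from -3.80 for Mrps23 to 3.21 for Mrps18c, and genes of both subunits lie at both ends.

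The large subunit genes had 15 lower (30.6%) and 5 higher (10.2%) calls among 49, with a median log2 fold change of -0.49. The small subunit genes had 7 lower (24.1%) and 3 higher (10.3%) calls among 29, with a median of -0.16. Of all genes tested 23.5% were lower, near the share of the small subunit, and 22.4% higher. The difference between the 2 subunit medians was not tested, because all genes share the same 4 libraries. Without E12.0 replicate 1 the subunit medians relative to all genes were -0.22 for the large and -0.15 for the small subunit, so the gap between them nearly closed. Over each library left out in turn, the small subunit value lay between -0.37 and -0.10. The symbols do not fully follow the structure of the particle, in which Mrps30 and Mrps18a sit in the large subunit, while Mrps36 belongs to the 2-oxoglutarate dehydrogenase complex. A grouping by structure was added after the data were seen. By it the large subunit had 16 lower (31.4%) and 5 higher (9.8%) calls among 51 genes (median -0.49). The small subunit had 6 lower (23.1%) and 3 higher (11.5%) among 26 (median -0.16). Grouped by origin, the 46 genes classed as bacterial in type had 15 lower and 6 higher calls (median -0.54), and the 31 classed as mitochondria-specific had 7 lower and 2 higher (median -0.15). The 31 include Mrps18a and Mrps18b, which are relatives of the bacterial protein S18 but were classed as mitochondria-specific variants of it.

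The lowest fold change belonged to Mrps23, a mitochondria-specific small subunit protein, whose annotated span is chr11:88194106-88211507 (GRCm38). Its level was 13.1 and 19.3 CPM at E13.5, against 249 and 203 CPM at E12.0. It fell 14.0-fold (log2 fold change -3.80 ± 0.30 SE, edgeR adjusted p = 1.44e-05). Mrps30 (chr13:118380110-118387252) has a small subunit name but is a large subunit protein. It stood at 43.1 and 52.5 CPM at E13.5, against 549 and 434 CPM at E12.0, and fell 10.3-fold (-3.36 ± 0.27, adjusted p = 1.61e-05). Both genes had every E13.5 library far below every E12.0 library.

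Among the genes with an Mrpl symbol, Mrpl3, a core protein near the site of peptide bond formation, fell the most. Mrpl3 (chr9:105053268-105077466) was at 31 and 44.1 CPM at E13.5, against 363 and 259 CPM at E12.0 (log2 fold change -3.05 ± 0.30, edgeR adjusted p = 4.03e-05). Mrpl36, one of the smallest proteins of the particle, was at 21 and 23.9 CPM at E13.5, against 172 and 121 CPM at E12.0 (-2.71 ± 0.28, adjusted p = 5.85e-05). For both genes the groups were well apart. Mrpl53, a mitochondria-specific protein, was at 25.2 and 28.9 CPM at E13.5, against 257 and 48.3 CPM at E12.0 (-2.49 ± 0.59, adjusted p = 0.00618). Its E12.0 replicates differed more than those of any other of the 78 genes, and without E12.0 replicate 1 the log2 fold change was -0.82 with an adjusted p of 0.0768.

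A further set of large subunit genes fell by smaller amounts. Mrpl40, a mitochondria-specific protein, was at 18.9 and 18.2 CPM at E13.5, against 95.7 and 53.6 CPM at E12.0 (log2 fold change -2.01 ± 0.34, edgeR adjusted p = 0.000928). Mrpl47, near the exit of the peptide tunnel, was at 13.7 and 10.4 CPM at E13.5, against 40.7 and 43.1 CPM at E12.0 (-1.80 ± 0.33, adjusted p = 0.00165). Mrpl1, the protein of the mobile L1 stalk, was at 20.3 and 21.7 CPM at E13.5, against 76.6 and 68.2 CPM at E12.0 (-1.78 ± 0.28, adjusted p = 0.000614). In each of these the E13.5 values were close together and below both E12.0 values. On log2(TPM + 1) the calls of Mrpl1, Mrpl40 and Mrpl53 were lost (limma adjusted p = 0.19, 0.15 and 0.167). The other 14 genes called lower had log2 fold changes between -1.61 (Mrpl13) and -0.73 (Mrps14). They include Mrpl10, of the stalk that recruits translation factors, and Mrpl58, a peptidyl-tRNA hydrolase that became a ribosomal protein. On log2(TPM + 1) limma called only 5 genes lower: Mrps23, Mrps30, Mrpl3, Mrpl36 and Mrpl47. None of these 14 genes kept its call there.

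The highest fold change belonged to Mrps18c (chr5:100798759-100804467), 1 of 3 genes for versions of the bacterial protein S18. Its level was 16.1 and 17.0 CPM at E13.5, against 2.06 and 1.53 CPM at E12.0. It rose 9.23-fold (log2 fold change 3.21 ± 0.53, edgeR adjusted p = 0.00084). The gene had 339 and 402 reads at E13.5, against 15 and 13 at E12.0, so the size of the fold rests on few E12.0 reads. Its paralogs did not pass the test. Mrps18a was at 39.2 and 42.2 CPM at E13.5, against 53.5 and 25.3 CPM at E12.0 (0.05 ± 0.36, adjusted p = 0.925). Mrps18b was at 13.9 and 14.1 CPM at E13.5, against 16.8 and 11.3 CPM at E12.0 (-0.01 ± 0.41, adjusted p = 0.993). For both paralogs the E13.5 values lay between the E12.0 values. The Mrps18a gene shares 6871 bases of its span with Rsph9, so its counts are less certain than those of the other paralogs.

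Mrps12, a protein of the decoding centre, also rose. It was at 24.3 and 27.4 CPM at E13.5, against 9.90 and 2.83 CPM at E12.0 (log2 fold change 2.03 ± 0.54, edgeR adjusted p = 0.0115). With offsets for the effective length in each library it was 1.61 with an adjusted p of 0.0502. Mrps27, a mitochondria-specific small subunit protein, was at 37.3 and 51.8 CPM at E13.5, against 11.3 and 18.5 CPM at E12.0 (1.58 ± 0.36, adjusted p = 0.00547). Mrps16, another small subunit protein, was at 7.72 and 9.75 CPM at E13.5, against 4.40 and 4.0 CPM at E12.0 (1.05 ± 0.55, adjusted p = 0.138). Its groups did not overlap, but the difference did not pass the edgeR test. On log2(TPM + 1), where the median of all genes was 0.76, Mrps16 was called higher, at 1.95 (limma adjusted p = 0.00237).

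In the large subunit 5 genes rose, and in all of them both E13.5 libraries were above both E12.0 libraries. This held for 39.3% of all genes tested. The 5 were picked by a test on the same libraries, so it adds no support. Mrpl18, whose bacterial relative binds 5S ribosomal RNA, was at 52.0 and 66.1 CPM at E13.5, against 17.1 and 19.2 CPM at E12.0 (log2 fold change 1.70 ± 0.30, edgeR adjusted p = 0.00135). Mrpl46, a mitochondria-specific protein, was at 23.6 and 28.1 CPM at E13.5, against 9.63 and 7.53 CPM at E12.0 (1.59 ± 0.38, adjusted p = 0.00686). Mrpl12, the stalk protein that contacts translation factors, was at 31.2 and 53.1 CPM at E13.5, against 18.0 and 11.5 CPM at E12.0 (1.52 ± 0.39, adjusted p = 0.0092). Of these genes Mrpl12 had the widest gap between its E13.5 libraries. Mrpl20, whose bacterial relative is an early assembly protein, was at 23.2 and 27.9 CPM at E13.5, against 9.08 and 9.65 CPM at E12.0 (1.45 ± 0.37, adjusted p = 0.00971). Mrpl4, which lines the peptide tunnel, was at 37.3 and 40.0 CPM at E13.5, against 16.6 and 24.2 CPM at E12.0 (0.92 ± 0.33, adjusted p = 0.0421). Without E13.5 replicate 2 the log2 fold change was 1.08 for Mrpl12 (adjusted p = 0.0913) and 1.31 for Mrpl20 (adjusted p = 0.0574), so Mrpl20 kept most of its size.

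**Figure D2:**
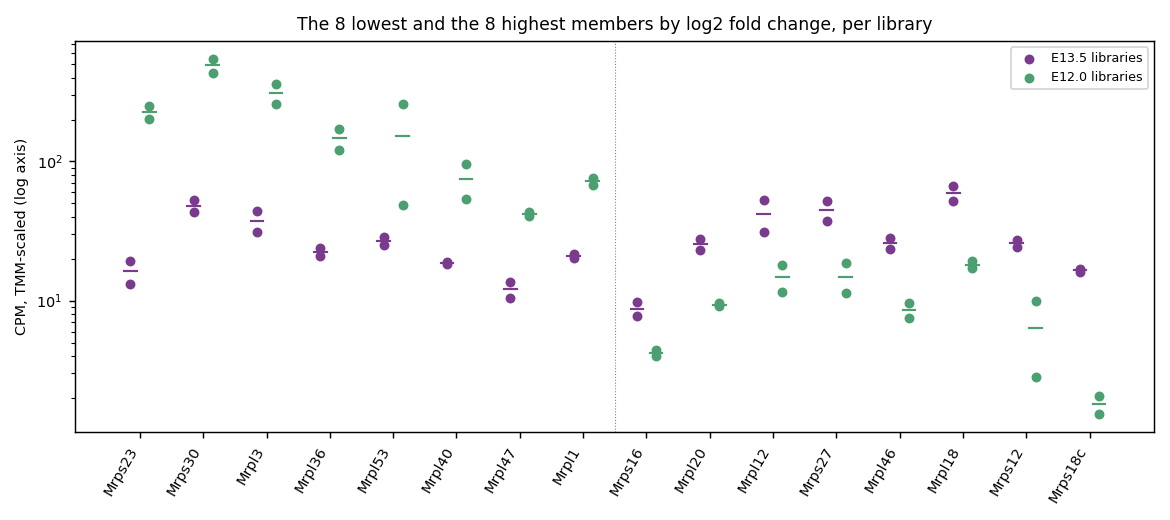
TMM-scaled CPM (log axis) of the 8 genes with the lowest and the 8 with the highest log2 fold change, with a point per RNA library and a line at the mean of each stage, E13.5 to the left of E12.0 within each gene. The groups do not overlap in any of the 16 genes, which were picked by their fold changes in these same libraries. The E12.0 points of Mrpl53 (257 and 48.3 CPM) and Mrps12 (9.90 and 2.83 CPM) lie furthest apart.

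The start regions of 4 of these genes are printed here, because they are the largest rise (Mrps18c), the largest fall (Mrps23), a gene that rose with its divergent neighbour (Mrps12) and a gene that fell and holds the YY1 letters (Mrpl36). Each runs 5′ to 3′ on the gene's strand over 300 bases, 250 before and 50 after a start in RefSeq (GRCm38.p6). Capitals mark the letters CCGGAAG, bound by ETS factors such as GABP, or AAGATGGCG, bound by YY1, on either strand. The windows are chr5:100798509-100798808 (plus strand) for Mrps18c, chr11:88204138-88204437 (plus) for Mrps23, chr7:28741772-28742071 (minus) for Mrps12 and chr13:73330759-73331058 (plus) for Mrpl36. The annotated spans of Mrps23 and Mrpl36 begin upstream of these windows, so they have other starts too.
Mrps18c: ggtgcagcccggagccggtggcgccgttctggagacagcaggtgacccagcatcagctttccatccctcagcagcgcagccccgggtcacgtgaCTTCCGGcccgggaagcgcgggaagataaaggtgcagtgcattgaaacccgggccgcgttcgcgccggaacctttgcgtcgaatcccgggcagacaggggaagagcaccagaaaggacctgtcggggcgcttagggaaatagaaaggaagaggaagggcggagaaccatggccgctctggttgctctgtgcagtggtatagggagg
Mrps23: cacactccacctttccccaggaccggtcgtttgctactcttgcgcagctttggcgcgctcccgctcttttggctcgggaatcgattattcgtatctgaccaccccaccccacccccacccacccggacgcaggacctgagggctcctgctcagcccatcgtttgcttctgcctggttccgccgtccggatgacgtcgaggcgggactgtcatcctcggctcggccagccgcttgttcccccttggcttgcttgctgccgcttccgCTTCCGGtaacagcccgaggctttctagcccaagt
Mrps12: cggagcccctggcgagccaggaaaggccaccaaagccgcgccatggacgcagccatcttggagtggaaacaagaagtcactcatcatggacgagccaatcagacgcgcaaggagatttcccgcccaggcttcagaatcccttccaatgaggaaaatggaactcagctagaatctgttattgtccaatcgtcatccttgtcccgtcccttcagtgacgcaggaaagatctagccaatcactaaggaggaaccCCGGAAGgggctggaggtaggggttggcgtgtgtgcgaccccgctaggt
Mrpl36: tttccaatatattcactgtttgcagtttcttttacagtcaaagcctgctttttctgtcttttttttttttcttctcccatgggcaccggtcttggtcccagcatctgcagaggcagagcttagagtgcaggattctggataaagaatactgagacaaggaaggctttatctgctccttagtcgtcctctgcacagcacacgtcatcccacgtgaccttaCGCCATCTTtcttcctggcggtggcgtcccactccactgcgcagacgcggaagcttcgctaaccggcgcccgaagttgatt
Mrps18c, Mrps23 and Mrps12 each hold the ETS letters once and Mrpl36 the YY1 letters once. The ETS letters are thus shared by genes that rose and a gene that fell. The YY1 letters are too. Of the 8 mitochondrial ribosomal protein genes with them, Mrpl36 was called lower and Mrps27 higher. That is 12.5% each way, against 23.5% lower and 22.4% higher among all genes tested. The median log2 fold change of the 8 was 0.37, with 6 positive and 2 negative.

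None of the 4 genes linked to human hearing loss passed the test. Mrps2 was at 38.6 and 44.9 CPM at E13.5, against 32.0 and 30.4 CPM at E12.0 (log2 fold change 0.42 ± 0.29, edgeR adjusted p = 0.26). Mrps7 was at 21.5 and 27.2 CPM at E13.5, against 17.2 and 32.5 CPM at E12.0 (-0.03 ± 0.38, adjusted p = 0.954). Mrpl49 was at 38.2 and 41.4 CPM at E13.5, against 54.1 and 47.8 CPM at E12.0 (-0.35 ± 0.27, adjusted p = 0.313). The groups overlapped for Mrps7 and not for the other genes just named. Mrpl50 was at 59.0 and 94.4 CPM at E13.5, against 55.6 and 58.9 CPM at E12.0 (0.42 ± 0.29, adjusted p = 0.252), with groups that almost touched. On log2(TPM + 1), Mrps2 and Mrpl50 were called higher, with differences of 1.18 and 1.22 (limma adjusted p = 0.0173 and 0.0259). The median of all genes on that scale was 0.76, and 6604 of 15982 genes were called higher. Mrpl44, whose human counterpart is linked to cardiomyopathy, was at 33.9 and 40.2 CPM at E13.5, against 55.8 and 63.0 CPM at E12.0 (-0.68 ± 0.27, edgeR adjusted p = 0.064). Mrps5, of the region that checks decoding, was at 51.2 and 65.8 CPM at E13.5, against 34.3 and 45.4 CPM at E12.0 (0.55 ± 0.29, adjusted p = 0.143), and Mrpl11, at the base of the stalk, was at 22.6 and 21.8 CPM at E13.5, against 38.8 and 24 CPM at E12.0 (-0.50 ± 0.35, adjusted p = 0.262). Of the genes in this paragraph with a negative value, Mrpl49, Mrpl44 and Mrpl11 turned positive on log2(TPM + 1), at 0.50, 0.21 and 0.36, and Mrps7 too, at 0.54, and none of these was called. All these values lay below the median of all genes on that scale, 0.76. Mrps5 was called higher on that scale, at 1.62 (limma adjusted p = 0.0084).

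Levels of different genes were compared as CPM per kilobase of effective transcript length. At E13.5 they spanned 11.2-fold, up to 92.5 CPM per kb for Mrps21 and down to 8.24 for Mrpl11, with a median of 31.2. At E12.0 they spanned 115-fold, up to 340 for Mrps30 and down to 2.96 for Mrpl35, with a median of 29.8. The genes thus spanned a narrower range at E13.5. The median per kb depends on effective lengths, which differ between the stages. Without division by length, the median log2 CPM was 4.55 and 4.81 at E13.5, against 5.19 and 4.97 at E12.0, lower in both E13.5 libraries. The order of the genes was only partly shared between stages (Spearman's rho = 0.541 over 78 genes, a description, since genes of a library share its depth and scaling). By mean TPM over the 4 libraries the highest were Mrps30 (247), Mrps21, Mrpl30 (185) and Mrpl53 (218), and the lowest were Mrpl57 (12.8), Mrpl35 (16), Mrpl11 (16) and Mrps22 (19.7). These means pool stages that differ: Mrps30 was at 68.2 and 81.3 TPM at E13.5, against 420 and 419 TPM at E12.0. The place of Mrpl53 rests on E12.0 replicate 1, since it was at 110 and 123 TPM at E13.5, against 517 and 122 TPM at E12.0.

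Some of the genes at the ends of that order differed between stages as well. Mrps21 was at 22.1 and 22.5 CPM at E13.5, against 57.5 and 33.9 CPM at E12.0 (log2 fold change -1.03 ± 0.34, edgeR adjusted p = 0.0293), a call lost in 6 alternatives. Mrpl30 was at 36.4 and 42.8 CPM at E13.5, against 83.6 and 52.1 CPM at E12.0 (-0.77 ± 0.30, adjusted p = 0.0585). Mrpl35 was at 19.1 and 19.2 CPM at E13.5, against 9.08 and 9.77 CPM at E12.0 (1.02 ± 0.39, adjusted p = 0.0542). The RNA of Mrpl35 was assigned to longer transcripts at E12.0, and with effective length offsets its log2 fold change was 2.11 (adjusted p = 0.0024). Mrps22 was at 10.8 and 11.8 CPM at E13.5, against 13.2 and 11.9 CPM at E12.0 (-0.15 ± 0.42, adjusted p = 0.791), and Mrpl57 was at 15.6 and 20.5 CPM at E13.5, against 15.7 and 9.53 CPM at E12.0 (0.52 ± 0.42, adjusted p = 0.331). On log2(TPM + 1) Mrpl57 was called higher, at 1.28 (limma adjusted p = 0.015), as was Mrpl35, at 2.65 (limma adjusted p = 0.000641). The median of all genes there was 0.76.

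Replicates differed more at E12.0. The median absolute log2 ratio between replicates over the 78 genes was 0.233 at E13.5, against 0.534 at E12.0. These ratios leaned one way: at E13.5, 65 of the 78 genes were higher in replicate 2, and at E12.0, 57 were higher in replicate 1. Summed over the 78 genes, the level was 2100 and 2450 CPM at E13.5, against 4630 and 3590 CPM at E12.0. As a share of all counts, before TMM scaling, it was 0.259% and 0.296% at E13.5, against 0.357% and 0.311% at E12.0, so the groups did not overlap on either scale, but the gap was smaller in shares. The summed level of large over small subunit genes, in CPM per kb, was 1.63 and 1.75 at E13.5, against 1.78 and 1.32 at E12.0, and these overlapped. The median large subunit gene was at 28.2 and 34.2 CPM per kb at E13.5, against 34.3 and 30.4 at E12.0, and the median small subunit gene at 29.0 and 32.7 at E13.5, against 30.3 and 25.5 at E12.0.

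**Figure D3:**
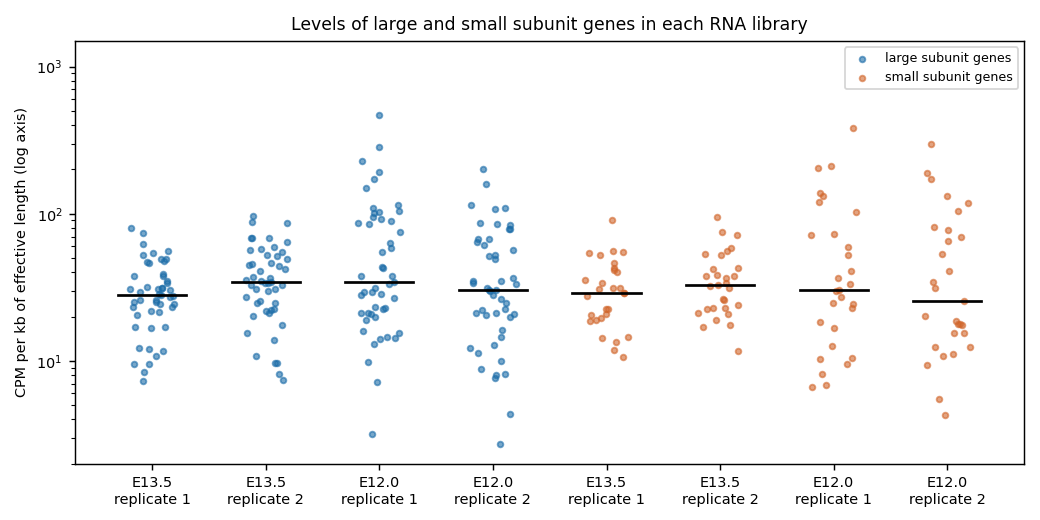
CPM per kb of effective length (log axis) of the 49 large and 29 small subunit genes in each RNA library, with a point per gene and a black line at the median. The medians lie between 25.5 and 34.3 in all 8 columns, while the points spread further at E12.0 than at E13.5.

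The ribosomal RNAs were also lower at E13.5, as far as poly(A)-selected libraries measure them. The small subunit RNA mt-Rnr1 was at 83.3 and 41.6 CPM at E13.5, against 162 and 123 CPM at E12.0 (log2 fold change -1.19 ± 0.34, edgeR adjusted p = 0.0149). The large subunit RNA mt-Rnr2 was at 2400 and 1500 CPM at E13.5, against 220000 and 152000 CPM at E12.0 (-6.58 ± 0.50, adjusted p = 1.25e-05). As a share of all counts, before TMM scaling, mt-Rnr1 held 0.0103% and 0.00501% at E13.5, against 0.0125% and 0.0107% at E12.0, so its groups almost touched. How well poly(A) selection catches these transcripts, and how far that differed between stages, was not tested.

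Subunits with names outside the Mrp series were lower or not called. Of 5 tested, 3 fell and none rose, with a median log2 fold change of -0.92. Chchd1, a small subunit protein, was at 17.5 and 17.0 CPM at E13.5, against 168 and 124 CPM at E12.0 (-3.08 ± 0.28, edgeR adjusted p = 2.67e-05). Dap3, the GTP-binding protein of the small subunit, was at 59.2 and 55.9 CPM at E13.5, against 130 and 97.8 CPM at E12.0 (-0.98 ± 0.26, adjusted p = 0.0104). Ptcd3, a small subunit protein with RNA-binding repeats, was at 152 and 112 CPM at E13.5, against 202 and 297 CPM at E12.0 (-0.92 ± 0.28, adjusted p = 0.0211). The other 2, Aurkaip1 and Gadd45gip1, did not pass the test.

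Genes that build the particle or modify its RNA had 6 lower and 2 higher calls among 25, with a median of -0.17. Tfb1m, which methylates the small subunit RNA, was at 3.95 and 3.90 CPM at E13.5, against 32.5 and 17.4 CPM at E12.0 (log2 fold change -2.66 ± 0.46, edgeR adjusted p = 0.00113). Mrm2, which methylates the large subunit RNA, was at 2.76 and 0.593 CPM at E13.5, against 12.4 and 8.48 CPM at E12.0 (-2.63 ± 0.76, adjusted p = 0.0169). Tfb1m and Mrm2 act on RNAs of different subunits, and other RNA-modifying enzymes of the list, such as Nsun4 (0.15, adjusted p = 0.769) and Mrm3 (-0.17, adjusted p = 0.816), did not pass the test. The RNA helicase Dhx30 moved the other way, at 360 and 305 CPM at E13.5, against 66.9 and 59.8 CPM at E12.0 (2.39 ± 0.25, adjusted p = 6.14e-05). Mettl15, another enzyme of the small subunit RNA, was at 3.67 and 6.27 CPM at E13.5, against 30.1 and 18.8 CPM at E12.0 (-2.30 ± 0.46, adjusted p = 0.0027).

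Translation factors were called in both directions, 3 lower and 3 higher among 15 (20.0% each way, median 0.15). This was near the 23.5% lower and 22.4% higher of all genes tested. Slirp, which with Lrpprc keeps mitochondrial messages stable, was at 15 and 15 CPM at E13.5, against 98.1 and 48.0 CPM at E12.0 (log2 fold change -2.28 ± 0.37, edgeR adjusted p = 0.000754). The release factor family gene Mtrf1 was at 10.5 and 10.3 CPM at E13.5, against 4.13 and 3.06 CPM at E12.0 (1.53 ± 0.54, adjusted p = 0.0401). Guf1 and the initiation factor Mtif3 also rose, by 1.33 ± 0.25 and 1.06 ± 0.39 (adjusted p = 0.00167 and 0.0454). Of 17 mitochondrial tRNA synthetases 4 rose (23.5%) and 1 fell (5.88%), with a median of 0.54. The share that rose was near that of all genes tested, 22.4%. The rises were Sars2 (1.66 ± 0.39, adjusted p = 0.0059), Ears2 (1.24 ± 0.37, adjusted p = 0.0188), Cars2 (1.18 ± 0.42, adjusted p = 0.0393) and Rars2 (0.99 ± 0.29, adjusted p = 0.0181). The fall was Lars2 (-3.25 ± 0.34, adjusted p = 5.81e-05), which is uncertain because mouse Lars2 carries sequence shared with mt-Rnr2.

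Of 12 genes listed for transcription and replication of the mitochondrial genome and handling of its RNA, 3 fell (25.0%) and 2 rose (16.7%). Their median was -0.03, and of all genes tested 23.5% were lower and 22.4% higher. The RNA polymerase Polrmt was at 41.2 and 43.9 CPM at E13.5, against 11.1 and 6.36 CPM at E12.0 (log2 fold change 2.29 ± 0.38, edgeR adjusted p = 0.000883). The helicase Supv3l1 was at 18.1 and 18.9 CPM at E13.5, against 86.5 and 62.7 CPM at E12.0 (-2.01 ± 0.30, adjusted p = 0.000435). Polrmt and Supv3l1 thus moved in opposite directions. The other 7 of the 12 were not called, among them Twnk (-0.12 ± 0.29, edgeR adjusted p = 0.762). Of 11 nuclear regulators, 2 fell and 2 rose (18.2% each way, median -0.29). Yy1 was at 27.1 and 34.2 CPM at E13.5, against 203 and 252 CPM at E12.0 (-2.89 ± 0.27, adjusted p = 3.13e-05), and Gabpa, the ETS subunit of GABP, fell by less (-0.82 ± 0.24, adjusted p = 0.0163). Ppargc1a and Nrf1 rose (1.63 ± 0.51, adjusted p = 0.0233, and 0.85 ± 0.26, adjusted p = 0.0199). Of 11 import genes 2 rose and 1 fell (median -0.33), among them Tomm40, the pore of the outer membrane, which rose (2.71 ± 0.34, adjusted p = 0.00017), and its receptor Tomm22, which fell (-2.00 ± 0.25, adjusted p = 0.00019).

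Beside other large complexes, the mitochondrial ribosomal protein genes had a median nearer to that of all genes than the cytosolic ribosomal protein genes. Of the cytosolic genes, 60 were called lower (63.8%) and 12 higher (12.8%) among 94 tested, with a median log2 fold change of -1.18. That list holds many near-identical copies whose reads can be split, so its counts are uncertain. The nuclear-encoded respiratory chain genes had 24 lower (30.8%) and 15 higher (19.2%) calls among 78 tested. Their median was -0.27, close to the -0.31 of the mitochondrial ribosomal protein genes. Of all genes tested 23.5% were lower and 22.4% higher. These are descriptions of the same 4 libraries, and the differences between lists were not tested. Outside the list, the 3 genes whose centred log2 CPM over the 4 libraries lay nearest to the mean profile of the 78 were Cmtm3 (Euclidean distance 0.0319), Samm50 (0.0356) and Sec22b (0.0440).

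The start regions were then set against the deposited peaks. A RefSeq window of 250 bases before to 50 after the start was given for 69 of the 78 genes, and peaks touching it by at least 1 base were counted. The same was done for the 10041 tested protein-coding genes with a window. ATAC-seq marks open chromatin, and 68 of the 69 windows were under a peak in all 3 E13.5 libraries and 68 in all 3 E12.0 libraries, against 93.6% and 88.3% of all windows. No window was open in all libraries of a single stage and in none of the other, against 0.548% of all windows for E13.5 alone and 0.00996% for E12.0 alone. The exception to open chromatin was Mrpl20, whose window was under a peak in 1 E12.0 library only, with a fold of 2.45 over background as the authors' caller gave it. Within 1000 bases of the start, all 69 had a peak in all 6 ATAC libraries.

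H3K27ac, a mark of active promoters and enhancers, varied widely between replicates of a stage. At E13.5 it was called at 65 and 17 of the 69 windows in replicates 1 and 2, against 55 and 36 at E12.0. The same libraries called 68.4% and 14.0% of all windows at E13.5, against 50.8% and 32.9% at E12.0. Both E13.5 libraries marked 17 of the 69 windows, against 13.48% of all windows, and both E12.0 libraries marked 36 of the 69, against 28.5%. The number shared is set largely by replicate 2 of each stage. Only Mrpl44 was marked in both E13.5 and no E12.0 library, against 0.697% of all windows, and none in both E12.0 and no E13.5 library, against 0.418%. At Mrpl44 the folds given by the authors' caller were 11.1 and 4.79 at E13.5. Mrps18c, the gene with the largest rise, was marked in both libraries at E13.5, against 1 of 2 at E12.0. Its folds were 4.85 and 3.29 at E13.5, against 5.41 in replicate 1 at E12.0. The window used for Mrps23, the gene with the largest fall, was marked in none of the 4 libraries, and this gene has other starts.

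Tead factors are the DNA-binding partners of Yap. The 2 pan-Tead libraries, both from E12.0, called 4 and 52 of the 69 windows, and 3.84% and 42.7% of all windows, so they differ mostly in how much was called. Both called Mrpl28, Mrpl39 and Mrpl51, 3 of 69, against 3.27% of all windows. The authors' folds there were 2.38 and 3.80 at Mrpl28, 2.42 and 3.11 at Mrpl39, and 3.03 and 3.89 at Mrpl51. At a stricter peak threshold (-log10 q of at least 2) none of the 3 was left. Mrpl28 and Mrpl39 fell at E13.5 (log2 fold change -1.40 ± 0.33 and -1.0 ± 0.31, edgeR adjusted p = 0.00613 and 0.0226), while Mrpl51 did not pass the test (adjusted p = 0.453).

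**Figure D4:**
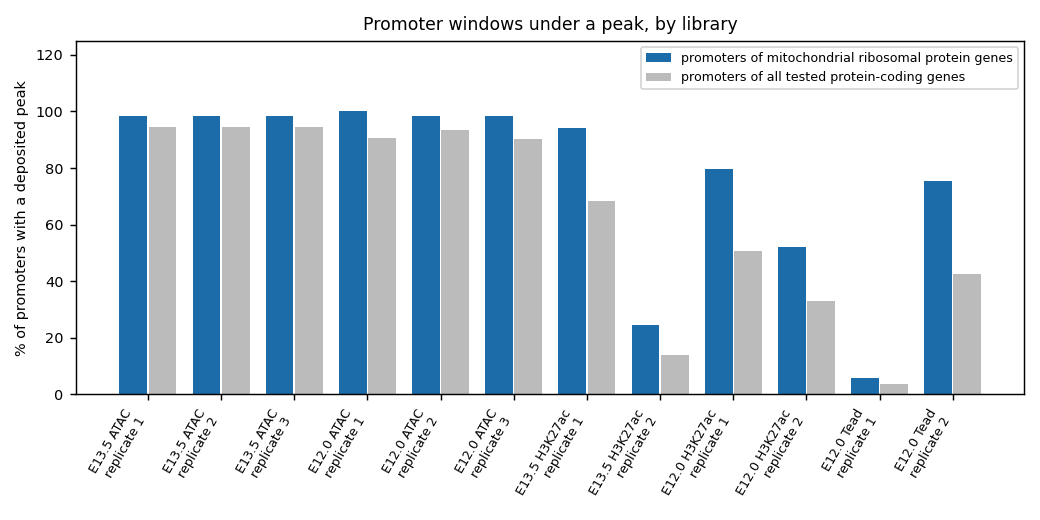
Share of start windows under a deposited peak in each ATAC-seq, H3K27ac and pan-Tead library, for 69 mitochondrial ribosomal protein genes and for 10041 tested protein-coding genes. ATAC shares are high in every library, H3K27ac and Tead shares differ widely between replicates, and each library's share is higher for the mitochondrial ribosomal protein genes.

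In sequence, the windows differed from those of all tested genes in which letters they hold. The ETS letters CCGGAAG, on either strand as for all letters searched, were in 26 of 69 windows (37.7%), against 20.0% of all windows. The YY1 letters AAGATGGCG were in 8 (11.6%, against 3.55%), and the NRF1 letters CGCATGCG in 7 (10.1%, against 4.39%). Letters common to many promoters were not more frequent: the GC box GGGCGG was in 34 (49.3%, against 70.3%) and TATAAA in 5 (7.25%, against 8.21%). The E-box CACGTG was in 5 (7.25%, against 11.7%) and the Tead letters GGAATG in 8 (11.6%, against 14.4%). A match describes the letters and not a bound site. The median GC content was 58.0%, against 61.2% for all windows. The genes with the ETS letters had 6 lower and 4 higher calls (median log2 fold change -0.08 over 26), and those without them 12 lower and 3 higher (median -0.26 over 43). Of all 2008 tested genes with these letters 458 were lower and 493 higher (median 0.08), and of the 8033 without them 1687 were lower and 1804 higher (median 0.10).

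Many of these genes share their start region with a neighbour on the other strand. A protein-coding gene that starts on the opposite strand within 1000 bases was found for 24 of 69 genes (34.8%), against 13.2% of all tested genes with a window. The 24 genes with such a neighbour had 5 higher and 3 lower calls and a median log2 fold change of 0.33. The 45 without had 2 higher and 15 lower calls and a median of -0.58. Among all tested genes, 295 of 1322 with a divergent start were higher and 292 lower (median 0.01), and 2002 of 8719 without one were higher and 1853 lower (median 0.11). The 20.8% called higher among the 24 genes was near the share of all genes tested. The difference within the mitochondrial ribosomal protein genes was not tested, and it was noticed after the values were seen.

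The neighbours did not generally change with their partner. Over the 24 genes, Spearman's rho between the log2 fold changes was 0.162, a description that counts the pair Mrpl46 and Mrps11 from both sides. In 5 pairs both genes were called, 2 in the same and 3 in opposite directions. Mrps12 starts 147 bases from Sars2, the mitochondrial seryl-tRNA synthetase. Sars2 was at 24.7 and 23.5 CPM at E13.5, against 8.39 and 6.83 CPM at E12.0, so both genes of this pair rose. Mrpl40 starts 113 bases from Hira, a histone chaperone. Hira was at 9.05 and 10.9 CPM at E13.5, against 49.4 and 81.8 CPM at E12.0 (log2 fold change -2.71 ± 0.35, edgeR adjusted p = 0.000211), so both genes of this pair fell.

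Pairs that parted were as frequent. Mrpl18 rose while Tcp1, a subunit of the cytosolic chaperonin 238 bases away, was at 220 and 241 CPM at E13.5, against 502 and 506 CPM at E12.0 (log2 fold change -1.13 ± 0.24, edgeR adjusted p = 0.00328). Mrps27 rose while Ptcd2 fell (-1.70 ± 0.32, adjusted p = 0.00195), and Mrpl21 fell (-1.19 ± 0.35, adjusted p = 0.0177) while Ighmbp2 rose (2.20 ± 0.47, adjusted p = 0.00368). The spans of Mrpl18 and Tcp1 share 1459 bases, and the labels do not say that counting used strand, so reads from the shared stretch could go to either. Mrpl46 and Mrps11, from different subunits, start 42 bases apart. Mrps11 was at 23.1 and 25.2 CPM at E13.5, against 21.2 and 16.1 CPM at E12.0, and did not pass the test (0.38 ± 0.34, adjusted p = 0.397), while Mrpl46 rose. The widest contrast was Mrpl57, not called, with edgeR, beside the mitotic gene Ska3, which was at 3.91 and 5.93 CPM at E13.5, against 152 and 142 CPM at E12.0 (-4.90 ± 0.32).

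**Figure D5:**
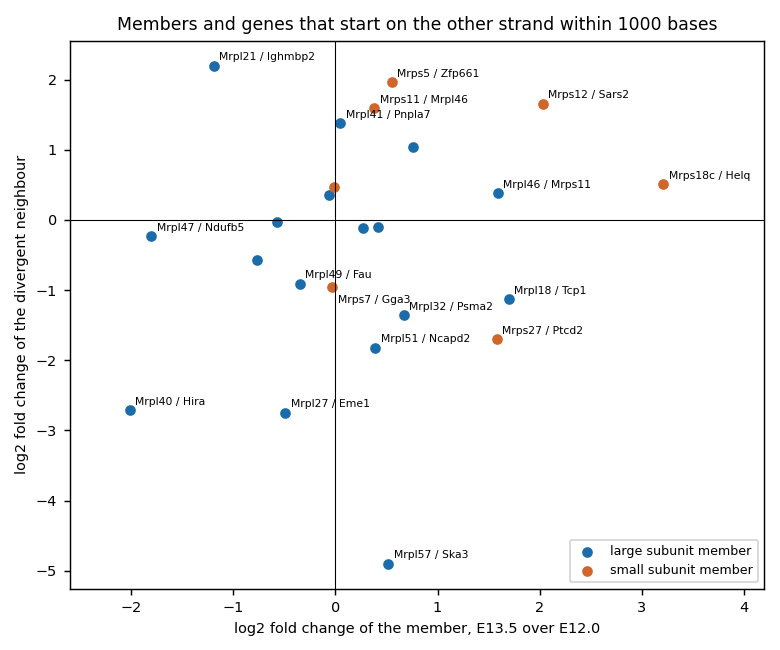
Log2 fold change, E13.5 over E12.0, of each of 24 mitochondrial ribosomal protein genes against that of the gene starting on the other strand within 1000 bases, with names where either gene passed an adjusted p under 0.05. Points lie on every side of both zero lines, with Mrps12 and Sars2 high together, Mrpl40 and Hira low together, and Ska3 far below its partner Mrpl57.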

How the data were processed

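RNA-seq (4 libraries, poly(A)-selected) gave estimated counts per gene with transcript and effective lengths, as the authors deposited them; per the submitters' processing notes the tools include STAR, UMI-tools and MACS2 (no versions) and the builds GRCm38 and mm10, and which tool made the counts is not given in the sources used. Peak lists were deposited per library, with a fold (ratio over background) and −log10 p and q per peak from the authors' caller. Expected counts were rounded and tested with edgeR 4.0.16 (quasi-likelihood, TMM, filterByExpr, Benjamini-Hochberg), 2 libraries per stage with no covariate; limma 3.58.1 and DESeq2 1.42.0 were alternatives. CPM used TMM-scaled library sizes; TPM was computed from counts and effective lengths. The script was tested on simulated data. Symbols were matched through the gene table for 48349 of 48709 IDs, and all 78 genes had a RefSeq entry (GRCm38.p6), from which positions and 69 start windows came; the other 9 have no window. Replicates within a stage differed by more than counting noise (chi-square 50.4 per degree of freedom for E13.5, 29.1 for E12.0). The genes and lists were chosen with earlier results of these data known. Named genes were the 8 highest and 8 lowest by log2 fold change, the 4 highest and 4 lowest by mean TPM, a fixed set of hearing-loss, paralog, stalk and decoding genes, and those whose start region was marked in 1 stage only; up to 4 called genes were named per other list. Mrpl28, Mrpl39, Mrpl51, the other called genes and the divergent neighbours were named after their values were seen.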

Additional observations from a re-analysis of the deposited data

Results flagged for a closer look

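Reads were also assigned to 4 of the 5 gene names ending in -ps that the rule left out. Over the 4 libraries Mrpl23-ps1 held 407 reads, Mrpl48-ps 154, Mrps36-ps1 8 and Mrps36-ps2 6. Mrpl23-ps1 had 169 and 208 reads at E13.5, against 16 and 14 at E12.0, and rose (log2 fold change 2.13 ± 0.61, edgeR adjusted p = 0.0161). Its parent by name, Mrpl23, did not pass the test (0.67 ± 0.39, adjusted p = 0.19). Whether these reads came from the parent genes was not tested.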

How the results depend on the processing

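Normalization by DESeq2's size factors, DESeq2's test, both filters, leaving out mitochondrial genes, protein-coding genes alone and effective length offsets left 7 to 10 genes higher and 20 to 27 lower. Deviations of libraries with the same replicate number were not correlated over genes (0.00816), which cannot show whether the libraries were prepared in pairs. A replicate block gave 8 higher and 21 lower. Leaving out each library in turn gave 5 to 9 higher and 14 to 22 lower, and a large subunit median relative to all genes between -0.64 and -0.22 (all 78 genes: -0.54 to -0.21). At an adjusted p of 0.01, 14 were lower. On log2(TPM + 1) 27 were higher and 5 lower, and on log2(TPM + 0.1) 22 and 4; there Mrps21 reversed to 0.07. The cause was not tested. H3K27ac counts followed the peak settings: at a fold of at least 4 they were 9 (both E13.5), 15 (both E12.0) and 2 (E13.5 alone), within 1000 bases 26 (both E13.5) and 0 (E13.5 alone), and with at least 50% of the window covered 8 and 0. With 1 library left out they were 17 to 65 (E13.5) and 36 to 55 (E12.0). Tead counts were 0 at −log10 q of at least 2, 0 at a fold of at least 4, and 4 to 52 from single libraries. With 2 RNA libraries per stage, small differences in the lowest genes could not be resolved.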
